A study of Mus musculus with 8 samples.

Results

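Blockade of the transcription factor Creb3l2 was set directly against blockade of the transcription factor XBP1 in the pituitary neuro-intermediate lobe of the mouse. The comparison used the 2 libraries labelled ACreb3l2 and the 2 labelled AXBP1, which are 4 of the 8 RNA-seq libraries of the study, and every gene of the deposited count table. No level of a wild-type (WT) library entered a difference. The 2 WT and 2 ACreb3l2/AXBP1 libraries served in the shared estimate of spread, in the scaling and in the filter on low counts. The fit without them is given beside the main counts.

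The ACreb3l2 mice carried a transgene for a dominant-negative form of Creb3l2, in which an acidic stretch replaces the basic region that binds DNA and the leucine zipper is kept. The AXBP1 mice carried the same kind of construct built on XBP1. Both transgenes were driven by the rat POMC promoter, which is active in the POMC-expressing melanotropes of the lobe and not in its other cells. Both groups were of strain C57B6 with their own Creb3l2 and Xbp1 genes intact, and were males at 3 months of age. Each library came from RNA of 5 pooled lobes, and 1 line of each transgene is shown. The pools hold whole lobes, with pituicytes, vessels and blood beside the melanotropes, although the labels name only melanotropes. The labels do not say whether the pools of a group share litters. The p-values of the main fit measure the spread between pools of a group, estimated over the groups of all 8 libraries.

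Creb3l2 belongs to the CREB3 family of factors that sit in the membrane of the endoplasmic reticulum (ER) and are released by proteases in the Golgi. Its relatives are known to act on genes of vesicle traffic between ER and Golgi. XBP1 is made active by splicing of its mRNA by the ER stress sensor IRE1, and it acts on genes for folding, import, glycosylation and degradation of proteins in the ER. Melanotropes depend on this machinery because they make and secrete large amounts of peptides derived from POMC.

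The ACreb3l2 libraries held 37988912 and 28256086 counts and the AXBP1 libraries 32769632 and 28785010. Values below are normalized counts, that is, counts scaled by library size and TMM factor to the mean depth. A difference is the log2 of ACreb3l2 over AXBP1, so a negative value means a lower level in ACreb3l2. Genes with an adjusted p under 0.05 in edgeR's quasi-likelihood test of the genes past a filter on low counts are termed called, and other fits are named where they are given. Creb3l2 (ENSMUSG00000038648, a protein-coding gene at 37327255 to 37442146 on mm10 chromosome 6) showed 27212 and 26775 normalized counts in the ACreb3l2 libraries, with 18837 and 22833 in the AXBP1 libraries. Its difference of 0.37 was not called (SE 0.175, edgeR adjusted p = 0.560). Xbp1 (ENSMUSG00000020484, a protein-coding gene at 5520659 to 5525893 on chromosome 11) showed 9155 and 9205 normalized counts in ACreb3l2, with 12448 and 13850 in AXBP1, a difference of -0.52 that was not called either (SE 0.140, edgeR adjusted p = 0.180). Xbp1 passed the threshold in the edgeR fit of the 4 compared libraries alone (adjusted p = 0.0347) and in DESeq2 (adjusted p = 0.0133), and both genes passed in the edgeR fit without a filter on low counts. For each gene both libraries carrying its dominant negative lay above both of the others. Each transgene holds coding sequence of its target from the zipper onward, and such reads may have been assigned to the gene itself, so these values are no check of the labels. The directions below are between libraries as labelled.

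Lists of genes for other cells of the lobe were examined beside this. The 5 melanotrope markers were at high counts in all 4 libraries, with Pomc at 3863160 and 3415250 normalized counts in ACreb3l2 and 3165630 and 3730060 in AXBP1. Pomc had a difference of 0.08 (SE 0.251, edgeR adjusted p = 0.968), and the groups overlapped. All 9 anterior-lobe markers were higher in ACreb3l2, with a median difference of 0.82, and their summed level was 164824 and 125544 normalized counts against 80514 and 84502. The 10 fibroblast and pericyte markers were all lower in ACreb3l2 (median -0.36), with sums of 33888 and 25737 against 40182 and 34953. The 10 endothelial markers were all lower too (median -0.44), but their sums of 8766 and 4953 against 10134 and 7953 overlapped. That median was -0.87 without ACreb3l2 replicate 1 and -0.17 without ACreb3l2 replicate 2. The 5 erythroid markers (median 0.63) and the 10 macrophage markers (median 0.17) were all higher, and their sums overlapped, with the highest level in ACreb3l2 replicate 1. Without that library the erythroid median was 0.11 and the macrophage median turned to -0.09. The 13 pituicyte markers had a median of 0.07 and the 2 hypothalamic axon markers one of 0.02. No marker was called in the filtered edgeR fit or by DESeq2, and none was at 0 in all 4 libraries. The edgeR fit without the filter called 7 of 9 anterior-lobe, 5 of 5 erythroid and 2 of 13 pituicyte markers higher, and 5 of 10 endothelial and 5 of 10 fibroblast and pericyte markers lower. That fit also called Fosl2 (adjusted p = 1.3e-19, against 0.728 in the filtered edgeR fit), which was high in ACreb3l2 replicate 1 alone. Its calls are therefore no sign that replicates agreed. In such pools, fewer cells of a type and less RNA per cell cannot be told apart.

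Most of the genes that separated the groups were lower in ACreb3l2. Of 15580 genes tested, edgeR called 112 (0.719%), of which 106 (0.68%) were lower and 6 (0.0385%) higher in ACreb3l2. The median difference was -0.75 over the genes called lower, with a range from -4.96 to -0.42, and 33 of them had a size of at least 1. The median of all tested genes was 0.00. The groups did not overlap for any of the 112, a pattern that 22.4% of all tested genes showed with ACreb3l2 below and 21.5% with ACreb3l2 above. The fit of the 4 compared libraries alone called 145 genes, 13 higher and 132 lower, among them 96 of the 112. DESeq2 called 258 and the edgeR fit without a filter on low counts 730, which each included all 112. As the groups of all 112 lay apart, a fit that leaves out 1 library was bound to keep their direction. With 1 library left out, 25 genes were called without ACreb3l2 replicate 1, 52 without ACreb3l2 replicate 2, 16 without AXBP1 replicate 1 and 21 without AXBP1 replicate 2, and of the 112 these included 17, 35, 15 and 19. All 112 kept their direction in these fits, and 14 were called in each of them.

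**Figure D1:**
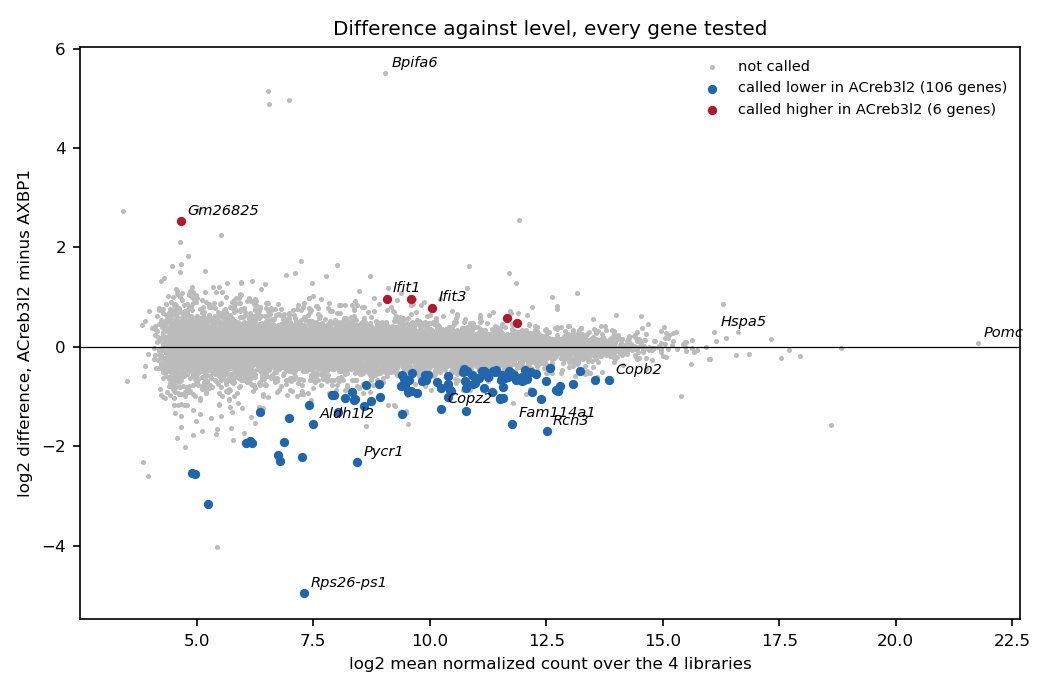
Log2 difference of each tested gene (vertical, ACreb3l2 minus AXBP1) against its log2 mean normalized count over the 4 libraries (horizontal). Grey points were not called, and the 106 blue and 6 red points were called lower and higher in ACreb3l2. Most called genes lie below the line at 0, while genes with large positive differences such as Bpifa6 were not called.

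The 14 genes called in every fit that left out a library were Fam114a1, Maged2, Cdr2, Ikbip, Tnfrsf23, Tbc1d8b, Prrc1, Snhg18, Rcn3, Gnat2, Fkbp9, Tmem263, Copz2 and Gpr180, and all were lower in ACreb3l2. Fam114a1 (ENSMUSG00000029185, a protein-coding gene at 64970071 to 65041886 on chromosome 5) had the lowest adjusted p. It had 1790 and 1788 normalized counts in ACreb3l2 and 5282 and 5146 in AXBP1, a difference of -1.54 (SE 0.0896, edgeR adjusted p = 0.000144). Rcn3 (ENSMUSG00000019539, a protein-coding gene at 45082913 to 45092221 on chromosome 7), a calcium-binding protein of the ER lumen, had 2971 and 2541 normalized counts against 8647 and 9144. This difference of -1.69 (SE 0.147, edgeR adjusted p = 0.00159) was the largest among called genes with more than 1000 normalized counts in every library, a limit chosen after the values were seen, and Rcn3 overlaps the antisense gene Gm45669. The levels in AXBP1 were thus 2.91 times those in ACreb3l2 for Fam114a1 and 3.23 times for Rcn3. Maged2 had 3628 and 3288 normalized counts against 7356 and 7031, a difference of -1.06. Cdr2 had 1116 and 909 against 2414 and 2545, a difference of -1.29.

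Larger differences belonged to genes at lower levels. Pycr1, the mitochondrial enzyme of the last step of proline synthesis, had 108 and 126 normalized counts in ACreb3l2 and 612 and 548 in AXBP1, a difference of -2.32 (SE 0.314, edgeR adjusted p = 0.0217). Gnat2, the transducin subunit of cones, had 55 and 54 against 258 and 247, and Tnfrsf23, a decoy receptor of the TNF family, had 40 and 38 against 175 and 178. Cgref1 had 41 and 33 normalized counts against 202 and 165. Each of these 4 genes was lower by more than 2 on the log2 scale, with groups far apart at low depth. Galnt5 had 6.88 and 11.4 normalized counts against 48.4 and 58.9, and Rhd had 10.3 and 6.85 against 54.4 and 48.5. Their differences were -2.57 and -2.54, and Galnt5 overlaps Ermn on the opposite strand. Ano7, Akain1, Cpz, Slc17a9, Aldh1l2, Mmp23, Grm8, Tmem97, Vkorc1, Rassf4, Ung, Zbed5 and B3gnt9 completed the 25 largest protein-coding differences among genes called lower, together with the genes named above, Copz2 and Prrc1, and the smallest of the 25 was -1.03 for B3gnt9. The pseudogenes Rps26-ps1 (12 and 7 normalized counts against 340 and 272) and Rpl34-ps1 (6 and 9 against 39 and 97) share near-identical sequence with their parent genes, so their counts are uncertain. The counting is not stated to use strand, and 27 of the 112 called genes overlap an exon of a gene on the opposite strand.

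Genes of the coat that carries proteins out of the ER were among those lower in ACreb3l2. COPII buds vesicles at ER exit sites, with the GTPase Sar1 recruiting an inner layer of Sec23 and Sec24 and an outer layer of Sec13 and Sec31. Of 19 COPII and exit-site genes tested, 15 were lower and 6 were called, all lower, where 0.68% of all tested genes were called lower. At an unadjusted p under 0.05, 11 of the 19 were lower, where 5.83% of all tested genes were. Sar1a had 9190 and 9448 normalized counts in ACreb3l2 and 14597 and 14846 in AXBP1, a difference of -0.66 (SE 0.0857, edgeR adjusted p = 0.00797). Sec24d (ENSMUSG00000039234, a protein-coding gene at 123267455 to 123365641 on chromosome 3), which holds cargo, had 2228 and 2215 against 3972 and 3831, a difference of -0.81 (SE 0.111, edgeR adjusted p = 0.0103). Sec31a, of the outer layer, had 6298 and 6686 against 10944 and 10788, a difference of -0.74 (SE 0.109, edgeR adjusted p = 0.0144). The replicates of each gene lay close together and the groups lay far apart.

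The other 3 called COPII genes differed by -0.66 for Sec24a, -0.61 for Sec13 and -0.53 for Sec23a, and Sec23a overlaps the antisense gene Gm17529. Paralogs did not all share this. Sec23b had 6166 and 6581 normalized counts against 5744 and 5953, a difference of 0.12 (edgeR adjusted p = 0.881), and Sec24c had one of -0.11 (edgeR adjusted p = 0.829). The exit-site scaffold Sec16a and the cargo receptor Mia3 had differences of -0.33 and -0.24 that were not called. The median of the list was -0.31, compared with 0.00 for all tested genes.

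COPI, which returns vesicles from the Golgi to the ER and is recruited by ARF GTPases, had the lowest median of the 19 pathway lists at -0.47. Of its 17 tested genes 15 were lower (49.2% of all tested genes were) and 4 were called, all lower (0.68% of all were called lower). Copz2, a coatomer zeta subunit (ENSMUSG00000018672, a protein-coding gene at 96849870 to 96861203 on chromosome 11), had 726 and 712 normalized counts in ACreb3l2 and 1744 and 1673 in AXBP1, a difference of -1.25 (SE 0.130, edgeR adjusted p = 0.00262). Arfgap1, which makes ARF1 hydrolyse its GTP, had 2000 and 2016 against 4156 and 4010, a difference of -1.02 (SE 0.118, edgeR adjusted p = 0.00516). The abundant subunit gene Copb2 had 10823 and 11968 against 18305 and 17807, a difference of -0.66 (SE 0.111, edgeR adjusted p = 0.0255). In all 3 the AXBP1 libraries were above both ACreb3l2 libraries by far more than the replicates differed.

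Arf4, a GTPase of the early Golgi, was lower by -0.47 (edgeR adjusted p = 0.0290) and overlaps Arf4os and Pde12 on the opposite strand. Copg1 had 11218 and 10838 normalized counts against 15829 and 15524, and Copa had 20184 and 23236 against 30531 and 28900. Their differences of -0.51 and -0.45 missed the threshold in edgeR (adjusted p = 0.0929 and 0.165) and passed it in DESeq2 (adjusted p = 0.00178 and 0.0133). Arf3 had 12422 and 12086 against 11004 and 11530, a difference of 0.12 (edgeR adjusted p = 0.751).

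Tethers and SNAREs, which catch and fuse the vesicles, shared the direction almost throughout. Of 38 Golgi tether and SNARE genes tested, 36 were lower (49.2% of all tested genes were). Of the 38, 34 had both ACreb3l2 libraries below both AXBP1 libraries (22.4% of all tested genes did). In this list 7 were called, all lower (0.68% of all tested genes were called lower). Their median was -0.24. The SNARE Sec22b had 4150 and 4652 normalized counts against 7164 and 7042, a difference of -0.69 (SE 0.106, edgeR adjusted p = 0.0176). Its partner Stx5a, the syntaxin of ER to Golgi fusion, had 1855 and 1994 against 2874 and 2810, a difference of -0.56 (SE 0.0966, edgeR adjusted p = 0.0287). Bet1l had a difference of -0.57 and overlaps Ric8a on the opposite strand.

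The golgins and tethers called were Golga3 (-0.66), Cog6 (-0.62), Golga2 (-0.55, with Swi5 on the opposite strand) and Golga5 (-0.49). Gorasp2, a stacking protein of the Golgi, had 4905 and 5353 normalized counts against 7334 and 7510 and missed the threshold (-0.53, edgeR adjusted p = 0.0664), which it passed in DESeq2 (adjusted p = 0.000905) and in the 4 compared libraries (0.0260). Cargo receptors were less uniform, with 16 of 22 lower and a median of -0.08, and 1 was called, lower (0.68% of all tested genes were). The called gene was Kdelr2, the receptor that returns escaped ER proteins, with 4692 and 4799 against 8717 and 8604, a difference of -0.87 (SE 0.108, edgeR adjusted p = 0.00709). Surf4, with 9765 and 9771 against 14905 and 14796, had a difference of -0.60 that was not called (edgeR adjusted p = 0.0735) and passed in DESeq2 and in the 4 compared libraries (adjusted p = 0.000287 and 0.0109). Lman2 was at 11397 and 11639 against 9537 and 9655, a difference of 0.26 (edgeR adjusted p = 0.436). Over the 4 transport lists together, 82 of 96 tested genes were lower (49.2% of all tested genes were). Of the 96, 18 were called, all lower (0.68% of all tested genes were called lower). The fibroblast and pericyte markers were lower in the same libraries, and the endothelial markers had negative differences too. When 1 library was left out, the median of the transport genes ranged from -0.29 to -0.23 and that of the fibroblast and pericyte markers from -0.54 to -0.18. The part of these cells in the result was not tested.

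**Figure D2:**
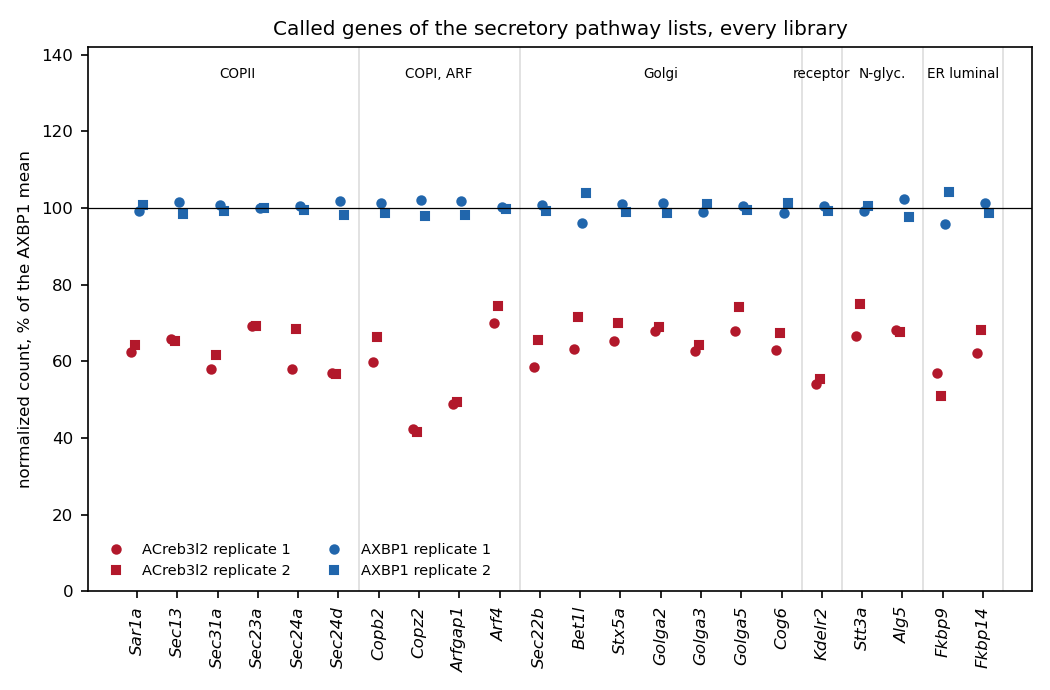
Normalized counts of the 22 called genes of the secretory pathway lists in each library, as a percentage of the mean of the 2 AXBP1 libraries (vertical axis, from 0), with red for ACreb3l2, blue for AXBP1, circles for replicate 1 and squares for replicate 2. Every red point lies below every blue point of its gene, and the called genes were chosen for this difference.

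The 22 called genes of the secretory pathway lists, which comprise the 18 of the transport lists and the 4 of the next paragraphs, did not all keep the call. With library size alone Sec24a, Sec23a, Arf4, Bet1l and Stt3a missed the threshold in edgeR (adjusted p = 0.0561, 0.0989, 0.0550, 0.0578 and 0.0586), and the limma fit of FPKM called 4 of the 22, namely Copz2, Arfgap1, Kdelr2 and Fkbp9. The fit of the 4 compared libraries alone called 20 of the 22, without Sec24a and Bet1l. As the groups of all 22 lay apart, leaving out 1 library was bound to keep their direction. With 1 library left out, 2 to 5 of the 22 were called, and all 22 kept their direction.

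Of the 106 genes called lower 27 were members of the 19 pathway lists. Examples of the others, picked after their values were seen and not counted as a group, were Golt1b (-0.91), Tvp23b (-0.66), Acbd3 (-0.56), Gga2 (-0.62), the ARF-like GTPase Arl1 (-0.51), the ER membrane proteins Ckap4 (-0.89) and Lrrc59 (-0.66) and the GDP-fucose transporter Slc35c1 (-0.90).

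Import into the ER and N-glycosylation had fewer calls. Of 57 genes tested, 39 were lower (49.2% of all tested genes were) and 2 were called, both lower (0.68% of all were called lower). The median was -0.17. At an unadjusted p under 0.05, 18 were lower (5.83% of all tested genes were), and 33 had both ACreb3l2 libraries below both AXBP1 libraries (22.4% of all tested genes did). Stt3a, a catalytic subunit of the oligosaccharyltransferase, had 7484 and 8424 normalized counts in ACreb3l2 and 11145 and 11292 in AXBP1, a difference of -0.50 (SE 0.0898, edgeR adjusted p = 0.0401). Alg5, which makes the glucose donor of the lipid-linked sugar chain, had 780 and 775 against 1170 and 1118, a difference of -0.56 (SE 0.0956, edgeR adjusted p = 0.0287). The ribophorins Rpn1 and Rpn2 differed by -0.05 and -0.01 and the glucosidase Ganab by -0.15, none of them called. Ssr3, of the translocon-associated complex, had 9576 and 10561 against 14038 and 12456, a difference of -0.40 that was not called (edgeR adjusted p = 0.234).

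Folding enzymes of the ER lumen were split. Of 46 chaperones and disulfide isomerases tested, 25 were higher and 21 lower, and the median was 0.02. In the list 2 were called, both lower (0.68% of all tested genes were). Both ACreb3l2 libraries were below both AXBP1 libraries for 16 genes (22.4% of all tested genes) and above them for 16 (21.5%). The called genes were both prolyl isomerases. Fkbp9 had 5081 and 4544 normalized counts against 8546 and 9296, a difference of -0.89 (SE 0.0885, edgeR adjusted p = 0.00216), and Fkbp14 had 2363 and 2598 against 3850 and 3757, a difference of -0.62 (SE 0.0870, edgeR adjusted p = 0.0117), with Plekha8 on the opposite strand. The abundant chaperones had values in the other direction, none of them called. Hspa5, the Hsp70 of the ER and a classical target of the unfolded protein response, had 73324 and 81550 against 61493 and 64915, a difference of 0.29 (SE 0.144, edgeR adjusted p = 0.584). Canx had 37573 and 39976 against 31535 and 34151, a difference of 0.24 (SE 0.102, edgeR adjusted p = 0.499). Both pairs were apart, while Hsp90b1 overlapped at 37368 and 42192 against 35455 and 37460, and Calr had a difference of 0.10.

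ER-associated degradation had 0 of 28 genes called in the filtered edgeR fit and a median of -0.05. At an unadjusted p under 0.05, 3 were lower (5.83% of all tested genes were) and 0 higher. Both ACreb3l2 libraries were below both AXBP1 libraries for 13 of the 28 (22.4% of all tested genes) and above them for 3 (21.5%). DESeq2 and the edgeR fit without the filter each called 2, lower. Vcp, Os9 and Sel1l differed by 0.06, 0.01 and 0.00. In the list of the CREB3 family, XBP1 and ATF6, the filtered edgeR fit called 0 of 10 genes, with a median of 0.00, while DESeq2 and the fit of the 4 compared libraries each called 1, Xbp1, and the fit without the filter called 2, Xbp1 and Creb3l2. In the branch of PERK, ATF4 and CHOP 21 genes were tested and 1 was called. This was Eif2ak3, which encodes the ER stress kinase PERK, with 1909 and 2024 normalized counts against 2859 and 2838, a difference of -0.53 (SE 0.0900, edgeR adjusted p = 0.0266), and it overlaps the antisense gene Gm43292. With the replicate number as a block, and in the limma fit of FPKM, this branch had 0 calls. The factor Atf4 had 4434 and 4079 against 4675 and 4605, a difference of -0.12 (edgeR adjusted p = 0.816).

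**Figure D3:**
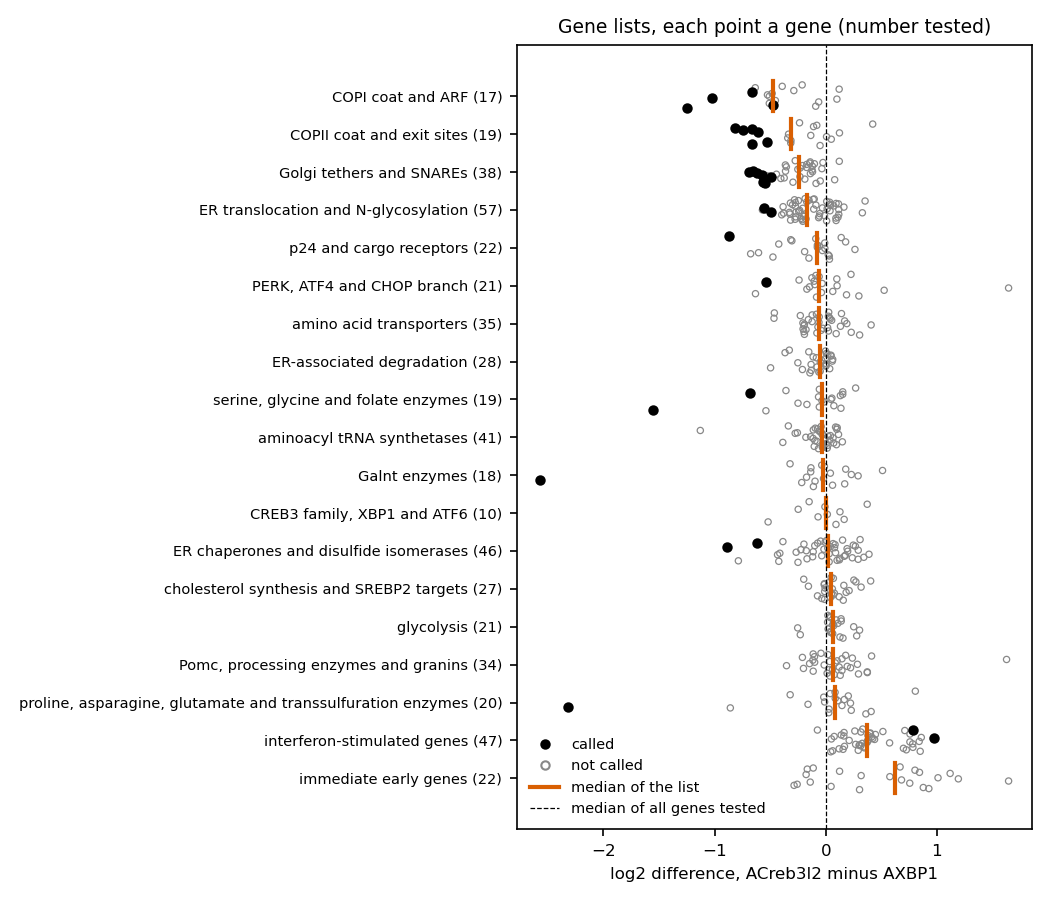
Log2 difference (horizontal, ACreb3l2 minus AXBP1) of every tested gene in the 19 pathway lists, with called genes filled, others open, the median of each list as an orange bar and the median of all tested genes as a dashed line. The COPI, COPII and Golgi lists have medians of -0.47, -0.31 and -0.24, and the interferon-stimulated and immediate early genes have medians of 0.37 and 0.62.

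Promoter letters were set beside these differences because the luciferase reporter for Creb3l2 was built from a short element, to which XBP1 is also reported to respond. The designed oligo repeats a unit of 18 bases 3 times. In capitals is the core GACGTGG, which also forms part of the known unfolded protein response element and was the core searched for:
Creb3l2 reporter unit: agggctGACGTGGcgtgt

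The core was looked for on both strands of RefSeq promoter windows of 300 bases (GRCm38.p6, 250 bases before to 50 after each annotated start). Of 32851 windows of all genes 2.42% held it, and of the 14339 windows of tested genes 3.38%. Of the 109 windows of genes called lower 24.8% held it, belonging to 26 of the 89 such genes with a window, and the other 17 genes called lower had none. For the COPI list the share was 47.4% of 19 windows, for COPII 28.6% of 21, for Golgi tethers and SNAREs 14.0% of 43 and for cargo receptors 9.52% of 21. The share did not follow the calls in every list. It was 14.3% of 21 windows for ER-associated degradation, which had no call in the filtered edgeR fit, and 2.08% of 48 for ER import and N-glycosylation, which had 2. It was 12.8% of 47 for the chaperones and 0 of 41 for the interferon-stimulated genes. A match describes letters and not a bound site. Of the 18 called genes of the transport lists 17 had a window, and 9 of these held the core. The windows below are 30 bases each, 1 from each of those 9 genes, chosen because they hold the core. They show its letters in their surroundings, with the core in capitals and each read on the strand given. Coordinates are those of GRCm38.p6.
Sec24d, chr3:123267460-123267489, plus strand: cccgggcgcctGACGTGGcactagcaaccc
Sec23a, chr12:59011992-59012021, minus strand: tcctcccctttGACGTGGcagaggcggcac
Sec13, chr6:113740665-113740694, plus strand: cccacggcctcgGACGTGGcagctcaaaac
Sar1a, chr10:61680117-61680146, minus strand: caagcggggtaaGACGTGGcagcgtctgtc
Copb2, chr9:98563713-98563742, minus strand: ggccaacccactGACGTGGaacttccggga
Copz2, chr11:96849744-96849773, plus strand: ggttctgcaacGACGTGGgggtcgggcaga
Arf4, chr14:26638020-26638049, minus strand: tgcgaactaccgGACGTGGagcccagcgaa
Stx5a, chr19:8741422-8741451, minus strand: tcctaactcggtGACGTGGctgctgcgcca
Golga3, chr5:110176874-110176903, minus strand: cggctccggtagGACGTGGctgtgcaaggg

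The core also stood near the starts of Fam114a1, Rcn3 and Fkbp14, in the windows that follow, shown as examples of called genes outside the coats and chosen because they hold the core.
Fam114a1, chr5:64970082-64970111, plus strand: ccggtcctgccGACGTGGcggggcgggacc
Rcn3, chr7:45092257-45092286, minus strand: tcggccttgtgGACGTGGcaagggggtcgt
Fkbp14, chr6:54593146-54593175, plus strand: cactcccaggaaGACGTGGcactttttcta

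Direction was then counted over all tested genes with a window, called or not, by whether the window held the core. Of 460 genes with the core 310 (67.4%) were lower in ACreb3l2, with a median difference of -0.08, and 26 (5.65%) were called lower. Of the 10707 genes without it 5227 (48.8%) were lower, with a median of 0.00, and 63 (0.588%) were called lower. Outside the 4 transport lists, 288 of 438 genes with the core (65.8%) were lower. In the transport lists all 22 genes with the core were lower, with a median of -0.51, and 51 of the 65 without it were lower, with a median of -0.14. The full palindrome TGACGTCA of the cAMP response element (CRE), which shares the letters GACGT, was in the windows of 402 genes, of which 48.0% were lower with a median of 0.01. The E-box CACGTG, which shares ACGTG with the core, was found for 1269 genes, of which 52.1% were lower.

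The ER stress response element (ERSE), searched as CCAAT, 9 bases of any kind and CCACG on either strand, was counted in the same way. It was in 0.119% of all windows and in 14.9% of the 47 chaperone windows. All 7 chaperone genes with it had a positive difference, with a median of 0.24, and 6 had both ACreb3l2 libraries above both AXBP1 libraries, where 21.5% of all tested genes did. None of the 7 was called, and Creld2 passed in the edgeR fit of the 4 compared libraries alone (adjusted p = 0.0464). Over all tested genes the element was found for 16, of which 7 were lower, none of them among these chaperones, and the median was 0.06. Of the 29 chaperone genes with a window without it 18 were lower, with a median of -0.07. Creld2 had 3564 and 3501 normalized counts against 2687 and 2706 (0.39, edgeR adjusted p = 0.385), and Pdia6 had 15833 and 15865 against 12229 and 12765 (0.34, edgeR adjusted p = 0.410). The windows of these 2 genes, of Hspa5 and of Canx are shown as the counterpart of those above, with the whole match in capitals.
Hspa5, chr2:34772020-34772049, plus strand: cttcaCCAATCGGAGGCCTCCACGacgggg
Creld2, chr15:88819515-88819544, minus strand: tgtggaCCAATTGAGGCTCGCCACGagaag
Pdia6, chr12:17266486-17266515, plus strand: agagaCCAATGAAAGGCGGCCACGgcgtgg
Canx, chr11:50325794-50325823, minus strand: attgaCCAATCACCACGCTCCACGaagaat

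**Figure D4:**
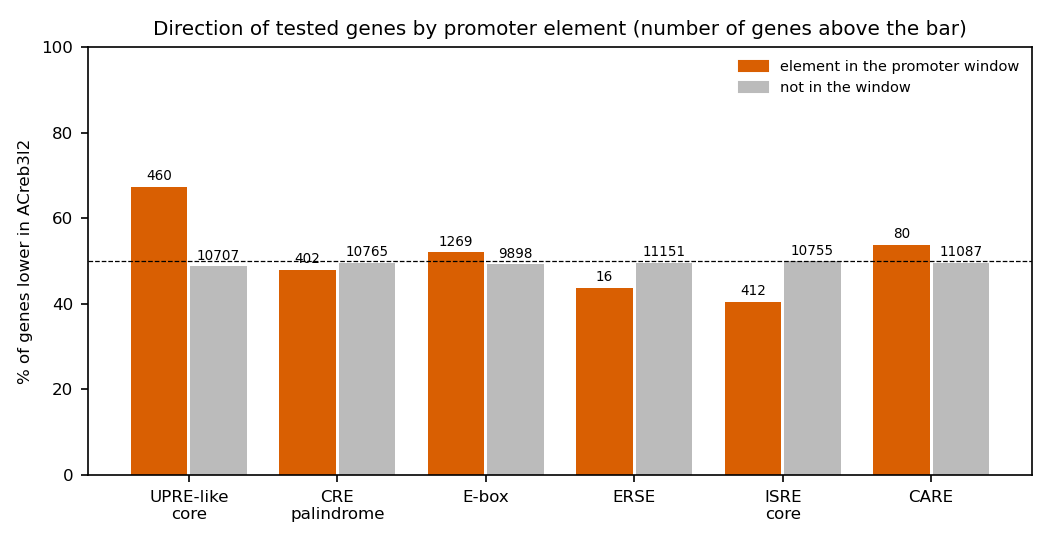
Share of tested genes that were lower in ACreb3l2 (vertical, percent) by whether the promoter window held each of 6 elements, with the number of genes above each bar and a dashed line at 50%. The core of the reporter element stands at 67.4% against 48.8%, while the CRE palindrome, which shares part of its letters, stands at 48.0%.

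Enzymes of amino acid supply had small median differences and a few calls. Among 20 genes of proline, asparagine, glutamate and transsulfuration metabolism, 14 were higher, the median was 0.09, and Pycr1 was called. Its upstream partner Aldh18a1, which carries out the initial steps of proline synthesis, had 3350 and 3095 normalized counts against 5940 and 5746. That difference of -0.86 missed the threshold in edgeR (SE 0.197, adjusted p = 0.147) and passed in DESeq2 (adjusted p = 4.13e-05). Oat, which links ornithine to proline, had 5381 and 5802 against 7177 and 6779, a difference of -0.32 (edgeR adjusted p = 0.179).

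Among 19 genes of serine, glycine and folate metabolism, 11 were lower, the median was -0.03, and 2 were called, both lower (0.68% of all tested genes were). Aldh1l2, a mitochondrial folate enzyme, had 107 and 77 normalized counts against 311 and 230, a difference of -1.55 (SE 0.198, edgeR adjusted p = 0.00745), and it overlaps D10Wsu102e on the opposite strand. Amt, of the glycine cleavage system, had 1334 and 1341 against 2188 and 2098, a difference of -0.68 (SE 0.0926, edgeR adjusted p = 0.0103). The list's 4 mitochondrial folate genes were all lower, with a median of -0.45, and 5 of its 6 cytosolic folate genes were higher, with a median of 0.06, while among all genes tested 49.2% were lower. The filtered edgeR fit gave 0 calls for 35 amino acid transporters, 41 aminoacyl tRNA synthetases, 27 cholesterol genes and 21 glycolysis genes. It gave 0 too for the 34 genes of Pomc, its processing and the granins. In this order the medians were -0.06, -0.03, 0.05, 0.06 and 0.07. At an unadjusted p under 0.05, 2, 4, 0, 1 and 1 genes were lower (5.83% of all tested genes were). Higher at that level were 0, 0, 3, 2 and 3 (3.65% of all). Of the synthetases 18 of 21 cytosolic and 8 of 17 mitochondrial ones were lower (49.2% of all tested genes were). Of the glycolysis genes 19 of 21 were higher (50.8% of all). Of the genes in these lists DESeq2 called 1, an amino acid transporter, and the edgeR fit without the filter called 1 transporter and 2 synthetases lower and 1 cholesterol gene and 4 genes of the Pomc list higher. Galnt5 was the called gene of 18 Galnt enzymes, whose median was -0.03.

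The genes called higher in ACreb3l2 included 2 interferon-induced genes. Ifit1 (ENSMUSG00000034459, a protein-coding gene at 34640871 to 34650009 on chromosome 19) had 767 and 666 normalized counts in ACreb3l2 and 385 and 345 in AXBP1, a difference of 0.97 (SE 0.15, edgeR adjusted p = 0.0185). Ifit3 (ENSMUSG00000074896, a protein-coding gene at 34583531 to 34588731 on chromosome 19) had 1276 and 1422 against 843 and 717, a difference of 0.79 (SE 0.120, edgeR adjusted p = 0.0176). Ifit3 has the near-identical neighbour Ifit3b, so reads may be split between them. Both genes lost the call when any 1 of the 4 libraries was left out.

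Over the list, 46 of 47 interferon-stimulated genes were higher, 39 had both ACreb3l2 libraries above both AXBP1 libraries (21.5% of all tested genes did), and the median was 0.37. It ranged from 0.31 to 0.40 when 1 library was left out. At an unadjusted p under 0.05, 27 genes of the list were higher and 0 lower, where 3.65% of all tested genes were higher at that level. The abundant members had smaller differences, with 0.26 for B2m, 0.17 for Ifitm3, 0.05 for Lgals3bp and -0.07 for Ifi27, none called. The summed level of the list was 52176 and 51286 in ACreb3l2 against 44344 and 42703. The anterior-lobe markers were higher in the same libraries without overlap, with 9 of 9 higher and the sums given above, and all 5 erythroid and 10 macrophage markers were higher with overlapping sums. The part of these cells in the result was not tested.

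The core TTTCNNTTTC of the interferon-stimulated response element (ISRE), searched on both strands, was in 3.44% of all windows and in 43.9% of the 41 windows of this list. The 17 genes of the list with it had a median of 0.39, and the 19 with a window without it one of 0.32. Both called genes held it, as shown here with the match in capitals.
Ifit1, chr19:34640794-34640823, plus strand: ccagtctcagTTTCAGTTTCtcactgctga
Ifit3, chr19:34583397-34583426, plus strand: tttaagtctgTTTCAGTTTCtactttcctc

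The other 4 genes called higher had no common list. Cpne7, a calcium-dependent membrane-binding protein, had 1157 and 881 normalized counts against 536 and 517, a difference of 0.95 (SE 0.135, edgeR adjusted p = 0.0117), and the microRNA gene Mir7080 lies in its exons. Fxyd6, a regulator of the sodium pump, had 3823 and 3891 against 2362 and 2768, a difference of 0.59 (SE 0.0953, edgeR adjusted p = 0.0217). Dynll1, a dynein light chain, had 4440 and 4252 against 2869 and 3350, a difference of 0.48 (SE 0.0893, edgeR adjusted p = 0.0432). The lincRNA Gm26825 had 58 and 29 against 5 and 10, a difference of 2.53 (SE 0.460, edgeR adjusted p = 0.0410), and it overlaps the pseudogene Gm15459 on the opposite strand. When each library was left out in turn, Cpne7 and Gm26825 kept the call once in 4 fits, and Fxyd6 and Dynll1 in 0.

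Immediate early genes, which respond within minutes to stimulation or tissue handling, had the highest median of the 19 pathway lists at 0.62, and 1 library carried it. Without ACreb3l2 replicate 1 the median was -0.15. None of the 22 genes tested was called in the filtered edgeR fit or by DESeq2, and 0 had an unadjusted p under 0.05 in the former, while the edgeR fit without the filter called 10 higher. Fosl2 had 12759 normalized counts in ACreb3l2 replicate 1 and 4183, 4203 and 4213 in the other 3 libraries. Nr4a1 had 10980 and 6000 against 5424 and 4630.

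**Figure D5:**
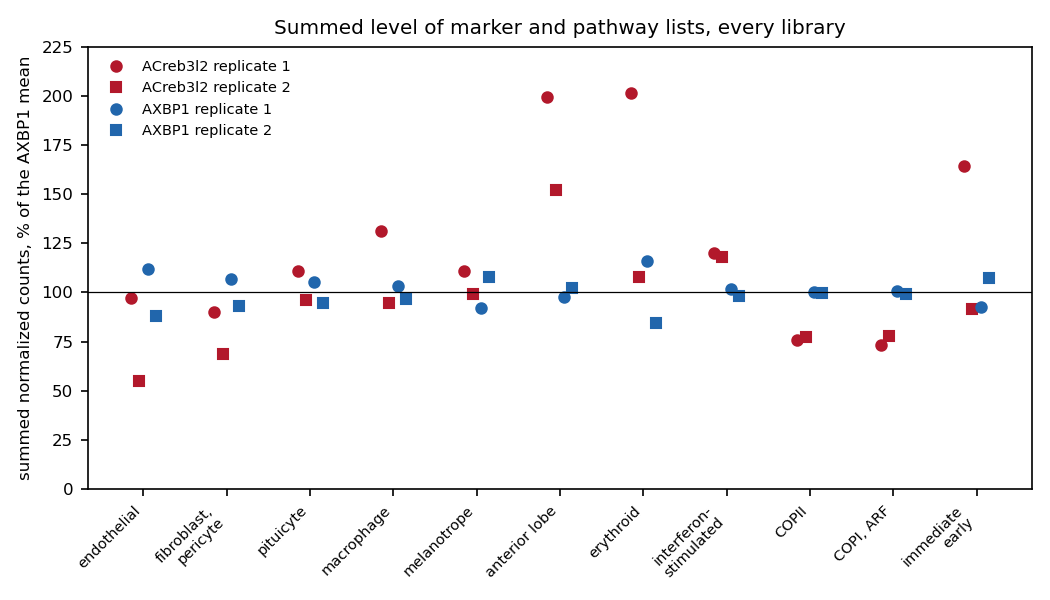
Summed normalized counts of marker and pathway lists in each library as a percentage of the mean of the 2 AXBP1 libraries (vertical), with red for ACreb3l2, blue for AXBP1, circles for replicate 1 and squares for replicate 2. The COPII and COPI sums of both ACreb3l2 libraries lie below those of AXBP1 with replicates close together, while the erythroid and immediate early sums are high in ACreb3l2 replicate 1 alone.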

How the data were processed

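RNA from pools of 5 neuro-intermediate lobes was sequenced in 8 libraries, of which 4 were compared. The authors deposited raw counts of reads per Ensembl gene, made per the study's methods with HTSeq on mm10 after alignment with Tophat (a software list names another aligner), with no normalization. The deposited FPKM table, fragments per kilobase scaled to depth by the authors, gave gene names and 1 alternative. The labels state ribosomal depletion, whereas the study's methods name a stranded mRNA kit. Whether the counting used strand, and the annotation release, are not given in the sources used here. Total counts per library were 28256086 to 37988912.

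Genes with a mean normalized count above 20 over all 8 libraries were tested in edgeR 4.0.16 (R 4.3.3, limma 3.58.1, DESeq2 1.42.0) with TMM scaling, a mean per group over all 8 libraries, robust quasi-likelihood and Benjamini-Hochberg adjustment at 0.05. FPKM values were tested in limma as log2(FPKM + 1). With 2 libraries per group no permutation test of a single value can reach 0.05, so none is given. Coordinates are GENCODE M21 on mm10, and promoters are RefSeq windows matched by symbol (11169 of 15575 tested symbols). The replicates were distinct libraries, with counts correlating across genes at 0.989 and 0.994. The scripts were checked on simulated data.

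The comparison, the 28 gene lists, the markers and the 9 promoter elements were chosen with earlier results of these data known. Of 646 list entries 642 were matched. Genes named by rule were Creb3l2, Xbp1 and Pomc, up to 10 higher and 25 lower protein-coding called genes by size with the same direction in each fit leaving out a library, up to 2 other called genes per direction, and per pathway list every called gene and the 4 most abundant uncalled ones. Others were chosen after their values were seen.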

Additional observations from a re-analysis of the deposited data

How the results depend on the processing

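Against 112 genes called, 6 higher and 106 lower in ACreb3l2, the counts within 1.5 times of these were 111 with median-ratio scaling, 105 with a mean above 100, 88 with library size alone, 145 in the 4 compared libraries, 151 in the 6 transgenic libraries and 95 under the replicate block. Genes called higher numbered 1 with library size alone, 13 with the 4 compared libraries and 13 with the 6 transgenic libraries. Without a filter on low counts 730 genes were called, 308 higher and 422 lower, among 29547 tested, and DESeq2 called 258, 46 higher and 212 lower. The fit without the filter also called genes that 1 library carried, such as Fosl2 (edgeR adjusted p = 1.3e-19), so its calls do not show that replicates agreed. The fit of FPKM called 30, with 23 lower, and its median difference over all genes was 0.15, so list medians from it were read relative to that. Lower genes made up 94.6% of the calls in the main fit, 57.8% without the filter, 82.2% with DESeq2 and 76.7% with FPKM. The cause of these shifts was not tested. Leaving out 1 compared library, with the remaining one assumed to vary like the other groups, gave 16 to 52 calls, 1 to 13 higher and 15 to 39 lower.

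Of the 112 genes, 13 were called under every alternative that gave a value, and no named called gene changed direction. That direction was bound to hold when a library was left out, as the groups of none of the 112 overlapped. List medians kept their sign in 13 of 19 lists when a library was left out. Over all alternatives the median ranged from -0.51 to -0.40 for COPI, -0.34 to -0.26 for COPII, -0.26 to -0.18 for Golgi tethers and SNAREs and 0.30 to 0.40 for the interferon list.

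The labels number the replicates 1 and 2 in each group without saying that a number marks a shared litter or day. The replicate differences of the groups correlated across genes at 0.045, so no pairing was shown. With the replicate number as a block 95 genes were called, 11 higher and 84 lower, 83 of them among the 112, and 15 of the 22 called genes of the secretory pathway lists kept the call, without Copb2, Golga5, Alg5, Arf4, Stt3a, Golga2 and Sec13 (edgeR adjusted p = 0.0616 to 0.0957).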

Other observations

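Of the genes not called, 13 differed by more than 2 on the log2 scale. The largest were carried by ACreb3l2 replicate 2. Bpifa6 had 1 and 2060 normalized counts in the ACreb3l2 libraries and 1 and 46 in the AXBP1 libraries, and Psapl1 had 3 and 486 against 4 and 12. BC048679 had 0 and 358 against 0 and 10, and 9430007A20Rik had 0 and 363 against 0 and 13. In each case the libraries numbered 2 exceeded those numbered 1, with edgeR adjusted p = 0.665 for Bpifa6 and 0.607 for Psapl1. Hist1h4m had 6 and 3 normalized counts in ACreb3l2 and 68 and 96 in AXBP1, a difference of -4.03 with edgeR adjusted p = 0.254.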
